A study of Mus musculus with 15 samples.

Results

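Collagens, laminins and their basement membrane partners were examined in mouse embryonic stem cells (mESCs) that had lost STAG1, STAG2 or both. The set comprised 59 of the 23412 genes listed: 44 collagen chains and 10 laminin chains, taken by the form of their symbols, together with the fibronectin gene Fn1, the nidogens Nid1 and Nid2, Sparc and the perlecan gene Hspg2. 1 further laminin chain gene was left out and is not reported here. STAG1 and STAG2 are the alternative accessory subunits of cohesin, the ring complex that folds chromosomes into loops. Polyadenylated RNA was sequenced as 15 libraries of the v6.5 mESC line, with 5 conditions of 3 replicates. Cells termed wild-type siGLO, Stag1-/- siGLO and Stag2-/- siGLO received a non-targeting control siRNA, whereas wild-type siStag1 and Stag2-/- siStag1 cells received siRNA against Stag1. Each siRNA was used at 50 nM and cells were collected 48 h later, after growth on gelatin without any feeder layer being named. Each knockout is a single CRISPR clone with a homozygous deletion, so a difference between a genotype and wild type is also a difference between that clone and its parent line, and clone and genotype cannot be told apart. The labels do not say that replicates came from separate cultures, so p-values measure only the spread between these samples.

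Basement membranes are thin sheets of extracellular matrix under epithelia. Laminins, each a trimer of an alpha, a beta and a gamma chain, assemble into a first network on the cell surface, and type IV collagen, itself a trimer of alpha chains, forms a second network. Nidogens and perlecan bridge both networks. In the early mouse embryo the primitive endoderm and its parietal derivative are prolific makers of laminin and type IV collagen, and mESC cultures hold a small and variable share of primitive endoderm-like cells.

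Read depth was 14982560 to 19070126 counts on genes per library (median 17700059). Of the targeted genes, Stag1 counts in both siStag1 conditions were below those of every siGLO library, and Stag2 counts in both Stag2-/- conditions were below those of every other library. Normalized Stag1 counts in Stag1-/- were 1822, 2364 and 1871 against 2283, 2133 and 2008 in wild-type siGLO, so RNA counts do not check the label of that clone. The paper reports that its deletion is in frame, and that Stag1 transcript was normal while no STAG1 protein was detected. The embryonic stem cell markers fixed for the label were counted in every library (8 of 8 genes, sums of 59009 to 106799 normalized counts).

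All values below are normalized counts, that is counts scaled to a common library size, unless they are called per kilobase, which divides them by the exon length of the gene. Of the 59 members, 47 had enough counts to be tested. The 12 others, Col10a1, Col15a1, Col19a1, Col24a1, Col25a1, Col28a1, Col4a3, Col4a4, Col6a3, Col9a1, Lama2 and Lamc3, never exceeded 19 raw counts in any library. Per kilobase, 12 members averaged over 100 across the 15 libraries, and these were the major basement membrane genes. In wild-type siGLO cells the gamma chain Lamc1 had the highest mean level per kilobase (2515), followed by Sparc (2360), Col4a1 (1816), Fn1 (1358), Nid2 (1273), Lamb1 (1120), Hspg2 (1098), Col4a2 (1089), Col18a1 (934), Lama5 (695), Nid1 (577) and Lamb2 (170). Neighbours in the middle of that order, Lamb1, Hspg2 and Col4a2, lay close together. The 35 other tested members, mostly fibrillar and minor collagens, were far lower. The summed count of the members was 117713 to 128945 in wild-type siGLO, 117077 to 120011 in wild-type siStag1, 91926 to 110303 in Stag1-/-, 70408 to 82212 in Stag2-/- and 64500 to 75712 in Stag2-/- siStag1 cells. Wild-type libraries of either siRNA thus lay above every knockout library, and Stag1-/- libraries lay above those with a Stag2 deletion.

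The stretches before the start sites of 6 members are shown, since these members stand for the 3 patterns described below. Each is 140 bases of the GRCm38.p6 assembly from RefSeq, written 5′ to 3′ on the strand of the gene and ending before the first annotated exon. Capitals mark matches, on either strand, to the GC box GGGCGG and the CCAAT box. Over 32851 promoters of this length, 28.0% hold the GC box, 23.4% hold CCAAT or its complement, and 7.21% hold TATAAA or its complement. The promoter table used here, from RefSeq, held 43 of the 59 members. Lamb1 (chr12:31265094-31265233, plus strand) and Col13a1 (chr10:61979109-61979248, minus strand) were lower in both knockouts.
Lamb1: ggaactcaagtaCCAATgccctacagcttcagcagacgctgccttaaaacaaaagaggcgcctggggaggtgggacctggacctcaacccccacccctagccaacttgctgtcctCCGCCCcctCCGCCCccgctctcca
Col13a1: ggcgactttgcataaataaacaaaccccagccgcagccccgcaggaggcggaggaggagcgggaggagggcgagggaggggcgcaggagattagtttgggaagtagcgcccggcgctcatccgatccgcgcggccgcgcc
Nid1 (chr13:13437411-13437550, plus strand) and Hspg2 (chr4:137468629-137468768, plus strand) were lower with the Stag2 deletion.
Nid1: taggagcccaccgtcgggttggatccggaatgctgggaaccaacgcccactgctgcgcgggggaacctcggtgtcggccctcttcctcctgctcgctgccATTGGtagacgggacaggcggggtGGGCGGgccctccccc
Hspg2: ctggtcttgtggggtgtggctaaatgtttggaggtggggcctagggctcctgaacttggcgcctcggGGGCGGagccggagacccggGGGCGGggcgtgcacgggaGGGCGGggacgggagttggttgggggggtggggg
Lama5 (chr2:180225860-180225999, minus strand) and Col18a1 (chr10:77166549-77166688, minus strand) were higher in Stag1-/- cells.
Lama5: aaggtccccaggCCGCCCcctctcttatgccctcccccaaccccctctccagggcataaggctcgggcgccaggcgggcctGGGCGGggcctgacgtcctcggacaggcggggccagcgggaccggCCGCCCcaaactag
Col18a1: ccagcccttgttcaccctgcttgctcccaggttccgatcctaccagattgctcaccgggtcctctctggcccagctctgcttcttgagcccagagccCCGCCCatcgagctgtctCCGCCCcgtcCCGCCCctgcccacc
Lama5, Col18a1 and Hspg2 held 3 GC boxes each, Lamb1 held 2, Nid1 held 1 and Col13a1 none. None of the 6 stretches held TATAAA. These matches describe the letters only, and GC boxes were found in members of each pattern.

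The type IV collagen genes showed the largest change of any well expressed member. Col4a1 and Col4a2 encode the chains of the most widespread type IV collagen trimer. Both lie on mm10 chromosome 8, head to head, with Col4a1 on the minus strand starting at 11312826 and Col4a2 on the plus strand starting at 11312805, so that their first exons overlap by 22 bases. Col4a1 had 13526, 13443 and 13697 normalized counts in the wild-type siGLO replicates and 12869, 12415 and 12815 with siStag1. It had 2490, 1818 and 1707 in Stag1-/-, 3067, 1735 and 1736 in Stag2-/-, and 3091, 2028 and 2821 in Stag2-/- siStag1 cells. Every knockout library was therefore below every wild-type library, with the mean at 14.8% of wild-type siGLO in Stag1-/-, 16.1% in Stag2-/- and 19.5% in Stag2-/- siStag1 cells. On the log2 scale Col4a1 fell by 2.76 (SE 0.21, adjusted p = 3.86e-07 from edgeR's quasi-likelihood test) in Stag1-/-, and its log2 fold change was -2.64 (SE 0.21, adjusted p = 1.12e-06) in Stag2-/- and -2.36 (SE 0.20, adjusted p = 3.62e-07) in Stag2-/- siStag1 cells. Col4a2 had 6835, 7103 and 7690 in wild-type siGLO, 1829, 1270 and 1118 in Stag1-/-, and 1632, 804 and 861 in Stag2-/-. With siStag1 it had 6907, 6778 and 7069 in wild type and 1584, 950 and 1363 in Stag2-/-. Col4a2 likewise fell in each knockout condition, with log2 fold changes of -2.36 (SE 0.24, adjusted p = 1.08e-05) in Stag1-/-, -2.71 (SE 0.24, adjusted p = 3.21e-06) in Stag2-/- and -2.47 (SE 0.24, adjusted p = 1.31e-06) in Stag2-/- siStag1 cells. These 3 comparisons, and that of wild-type siStag1, share the wild-type siGLO libraries and are not independent.

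Between the clones, neither gene passed the test with all libraries. The log2 difference of Stag1-/- minus Stag2-/- was -0.12 for Col4a1 (95% interval -0.51 to 0.26) and 0.35 for Col4a2 (-0.11 to 0.81). Col4a2 was called higher in Stag1-/- without Stag2-/- replicate 1 (0.76) and without the 5 libraries numbered 1 (adjusted p = 0.0126). The balance of both chains was also compared, as the ratio of their levels per kilobase. It was 1.75, 1.68 and 1.58 in wild-type siGLO, 1.21, 1.27 and 1.35 in Stag1-/-, and 1.67, 1.91 and 1.79 in Stag2-/- cells. Stag1-/- was below wild type in every library, a log2 difference of -0.39 (two-sided exact permutation p = 0.1, which is the smallest p that 3 libraries against 3 allow). Genes around the pair were lower too, but by far less. The median log2 fold change of the 708 tested genes of chromosome 8 was -0.19 in Stag1-/-, -0.20 in Stag2-/- and -0.22 in Stag2-/- siStag1 cells against 0.00 with siStag1 in wild type, and that of the 34 genes within 5 Mb was -0.25, -0.23 and -0.30. The part of that regional shift in the fall of the pair was not tested.

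**Figure D1:**
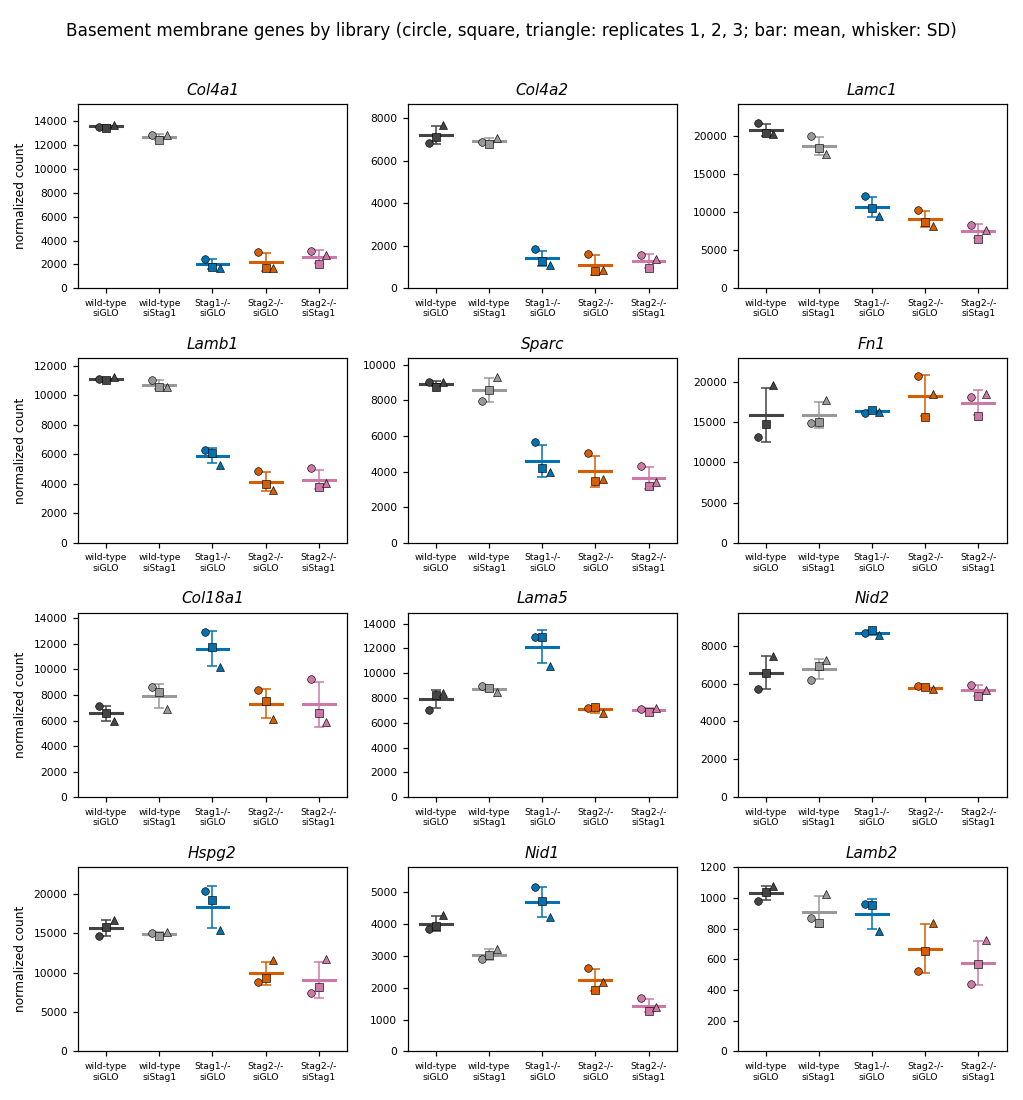
Normalized counts (y axis, linear from 0) of 12 basement membrane genes in the 15 libraries, by condition (x axis); symbols are replicates, horizontal bars are means and whiskers are SDs (n = 3). Col4a1, Col4a2, Lamc1, Lamb1 and Sparc drop in all 3 knockout conditions, Col18a1, Lama5 and Nid2 stand highest in Stag1-/-, the means of Hspg2, Nid1 and Lamb2 are lowest where Stag2 is deleted, and the groups of Fn1 overlap.

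Lamc1, Lamb1 and Sparc followed the same direction with smaller changes. LAMC1 is the gamma chain of most basement membrane laminins and LAMB1 a beta chain that pairs with it, while SPARC is a secreted collagen-binding glycoprotein. Lamc1 had 21714, 20413 and 20292 in wild-type siGLO, 20020, 18398 and 17694 in wild-type siStag1, 12110, 10566 and 9520 in Stag1-/-, 10253, 8770 and 8237 in Stag2-/-, and 8355, 6502 and 7686 in Stag2-/- siStag1 cells. Its log2 fold change was -0.96 (SE 0.11, adjusted p = 2.54e-05) in Stag1-/-, -1.2 (SE 0.11, adjusted p = 3.52e-06) in Stag2-/- and -1.47 (SE 0.11, adjusted p = 9.36e-08) in Stag2-/- siStag1 cells. The knockout libraries lay well under the wild-type ones without overlap. Lamb1 had 11092, 11039 and 11200 in wild-type siGLO, 11047, 10566 and 10550 in wild-type siStag1, 6308, 6095 and 5301 in Stag1-/-, 4840, 3984 and 3593 in Stag2-/-, and 5035, 3776 and 4022 in Stag2-/- siStag1 cells. It fell by 0.91 (SE 0.11, adjusted p = 6.38e-05) in Stag1-/-, and the log2 fold change was -1.42 (SE 0.12) in Stag2-/- and -1.38 (SE 0.12) in Stag2-/- siStag1 cells. Here the clones differed, since Lamb1 was higher in Stag1-/- than in Stag2-/- by 0.51 (SE 0.11, adjusted p = 0.00556) with no overlap of libraries. The corresponding difference of Lamc1 was 0.24 (SE 0.11, adjusted p = 0.139), and it passed with the replicate number as a block (adjusted p = 0.0197) and in several other fits, such as the one without Stag2-/- replicate 1.

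Sparc had 9029, 8768 and 9019 in wild-type siGLO, 7954, 8563 and 9290 in wild-type siStag1, 5653, 4180 and 3975 in Stag1-/-, 5015, 3461 and 3579 in Stag2-/-, and 4324, 3177 and 3425 in Stag2-/- siStag1 cells. Every knockout library was below every wild-type library, and Sparc fell by 0.96 (SE 0.15, adjusted p = 0.00051) in Stag1-/-, with log2 fold changes of -1.15 (SE 0.15) in Stag2-/- and -1.30 (SE 0.15) in Stag2-/- siStag1 cells. The sixth member called lower in all 3 knockout conditions was Col13a1, which encodes a transmembrane collagen of cell junctions. It is a low-count gene, with 122, 101 and 151 in wild-type siGLO, 94.2, 59.7 and 103 in wild-type siStag1, 58.9, 62.2 and 88.4 in Stag1-/-, 46.5, 20.4 and 29.5 in Stag2-/-, and 21.6, 9.34 and 19.2 in Stag2-/- siStag1 cells. The log2 fold change was -0.83 (SE 0.30, adjusted p = 0.0784) in Stag1-/-, -1.95 (SE 0.33, adjusted p = 0.000636) in Stag2-/- and -2.89 (SE 0.35) in Stag2-/- siStag1 cells, and the clones differed by 1.12 (SE 0.33, adjusted p = 0.0278), a call lost without Stag2-/- replicate 2. The call in Stag1-/- was lost without wild-type siGLO replicate 1 or 3 or Stag1-/- replicate 1 or 2, whereas both calls of Stag2 deletion against wild type were kept whichever compared library was left out.

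Against wild type, 17 of the 47 tested members changed in Stag1-/- cells, 8 higher and 9 lower, where 20% of all 14508 tested genes changed (10.1% higher and 9.93% lower). In Stag2-/- cells 21 members changed, 8 higher and 13 lower, against 28.3% of all genes (13.9% higher and 14.4% lower). In Stag2-/- siStag1 cells 24 changed, 12 higher and 12 lower, against 43.9% of all genes (22.6% higher and 21.3% lower). The members' share, 36.2% in Stag1-/-, 44.7% in Stag2-/- and 51.1% in Stag2-/- siStag1 cells, was above that of all genes in Stag1-/- and Stag2-/- and closer to it in Stag2-/- siStag1 cells. The median absolute log2 fold change was 0.60 for members against 0.21 for all genes in Stag1-/-, 0.80 against 0.25 in Stag2-/-, and 0.79 against 0.31 in Stag2-/- siStag1 cells. These medians were not matched for count level, and most tested members had low counts. In wild-type siStag1 cells, where no member was called, the medians were 0.23 and 0.11. Libraries of the groups did not overlap at 25 members in Stag1-/- (31.7% of all genes), 21 in Stag2-/- (35.7%) and 22 in Stag2-/- siStag1 cells (47.3%). The count in Stag1-/- was 10 to 14 whichever of the 6 libraries compared was dropped, while 13.0% to 18.7% of all genes were called in those fits. It was 10 without wild-type siGLO replicate 1 (14.8% of all genes), 11 without Stag1-/- replicate 1 (13.3%) and 10 without Stag1-/- replicate 2 (16.6%). By role, 6 of 8 tested laminin chains changed in Stag1-/- and 4 in Stag2-/-, 4 of 6 basement membrane collagens changed in each, and 2 and 3 of 10 fibrillar collagens. Only 6 members, the genes described so far, were called lower in all 3 knockout conditions, and 13 tested members were called in none of the 3. With the replicate number as a block, Lama3 was called lower in all 3 as well. Some of the 13, Col6a5 and Col9a2 among them, were then called in at least 1.

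**Figure D2:**
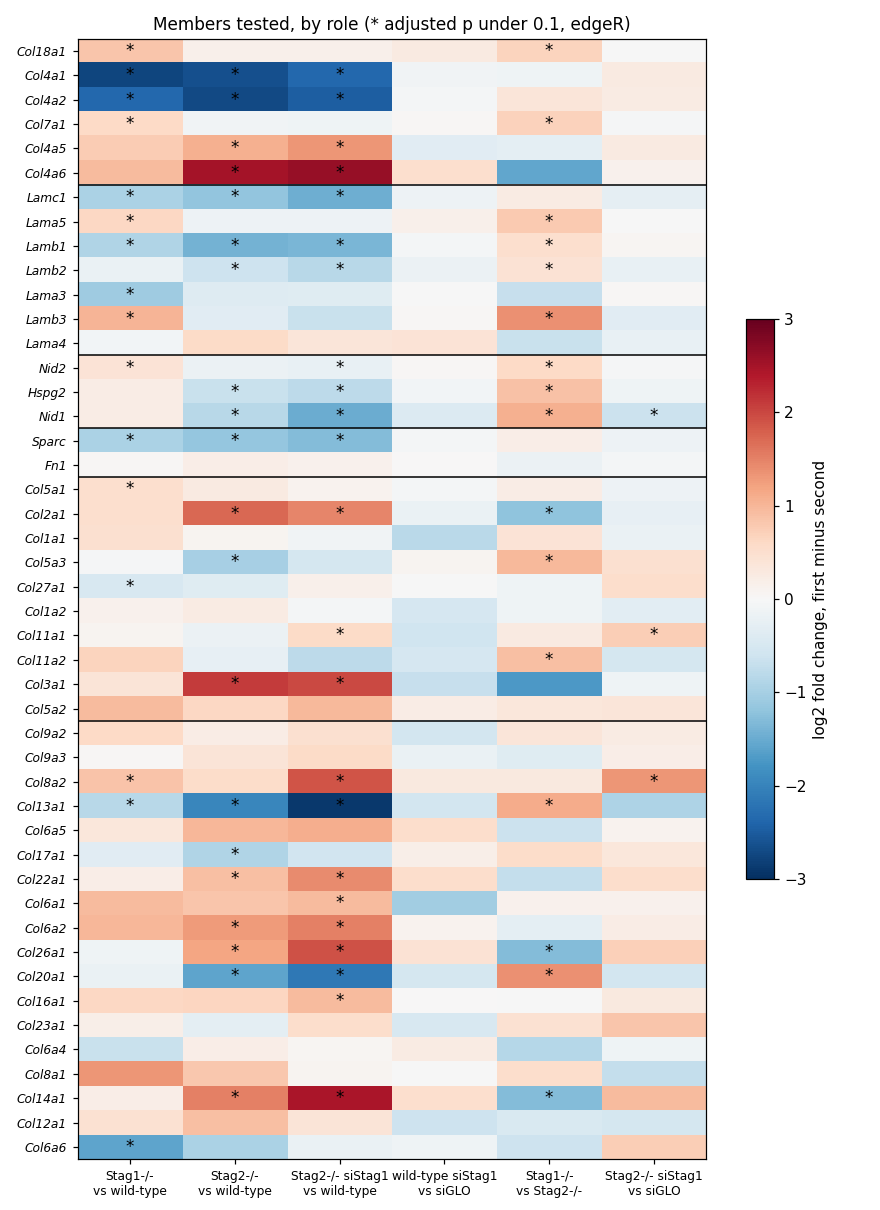
Log2 fold changes (colour scale, first condition minus second, capped at 3 in each direction) of tested members (y axis, grouped by role and ordered by level) in 6 comparisons (x axis), where asterisks mark an adjusted p under 0.1 by edgeR. Wild-type siStag1 carries no asterisk, the type IV collagen pair is blue in the 3 knockout comparisons, and most asterisks of Stag1-/- against Stag2-/- are red.

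A second group rose in Stag1-/- cells and was not called in Stag2-/- cells with all libraries and no block. Lama5, the alpha chain of laminins widespread in epithelial basement membranes, had 7067, 8238 and 8434 in wild-type siGLO, 8946, 8812 and 8508 in wild-type siStag1, and 12898, 12898 and 10596 in Stag1-/-. It had 7173, 7306 and 6776 in Stag2-/- and 7143, 6902 and 7152 in Stag2-/- siStag1 cells. The Stag1-/- libraries were above every other library. The rise was 0.62 (SE 0.09, adjusted p = 0.000184) over wild type and 0.78 (SE 0.09, adjusted p = 2.53e-05) over Stag2-/-. In Stag2-/- against wild type, the log2 fold change of Lama5 was -0.16 (adjusted p = 0.209). It was called lower there in 1 of 6 fits that left 1 library out, and without the 5 libraries numbered 1 (-0.26, adjusted p = 0.0619). Col18a1, whose product is a heparan sulfate collagen of basement membranes and the source of endostatin, had 7101, 6594 and 5971 in wild-type siGLO, 8665, 8227 and 6869 in wild-type siStag1, 12967, 11732 and 10208 in Stag1-/-, 8384, 7492 and 6128 in Stag2-/-, and 9258, 6623 and 5902 in Stag2-/- siStag1 cells. Stag1-/- was again highest throughout, by 0.83 (SE 0.15, adjusted p = 0.0018) over wild type and 0.67 (SE 0.15, adjusted p = 0.00704) over Stag2-/-. Nid2, one of the linker proteins, had 5716, 6582 and 7463 in wild-type siGLO, 6213, 6942 and 7233 in wild-type siStag1, 8704, 8866 and 8555 in Stag1-/-, 5860, 5803 and 5701 in Stag2-/-, and 5907, 5337 and 5691 in Stag2-/- siStag1 cells. It rose by 0.40 (SE 0.09, adjusted p = 0.00643) in Stag1-/- and was 0.59 higher (SE 0.09, adjusted p = 0.000338) there than in Stag2-/-. In Stag2-/- siStag1 cells Nid2 fell by 0.22 (SE 0.09, adjusted p = 0.0631), a call that leaving out wild-type siGLO replicate 2 or 3 or Stag2-/- siStag1 replicate 2 or 3 removed. Against wild type in Stag2-/- the log2 fold change was -0.19 (adjusted p = 0.154, 0.0941 with the replicate block, and 0.0201 without the 5 libraries numbered 1).

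Smaller members of this group were less secure. Col5a1, a fibrillar collagen that regulates fibril diameter, had 340, 340 and 406 in wild-type siGLO, 601, 561 and 388 in Stag1-/-, and 419, 459 and 438 in Stag2-/-. With siStag1 it had 384, 309 and 357 in wild type and 371, 365 and 440 in Stag2-/-. It rose by 0.51 (SE 0.15, adjusted p = 0.0307) in Stag1-/-, where replicate 3 overlapped wild type, and the call was lost without replicate 1 or 2 of either group. Between the clones it was not called, at 0.23 (95% interval -0.06 to 0.53). Col7a1, the collagen of epithelial anchoring fibrils, and Lamb3, a beta chain of epidermal laminin, were also called higher in Stag1-/- against wild type, by 0.60 (SE 0.20, adjusted p = 0.0579) and 1.02 (SE 0.36, adjusted p = 0.0753). The call of Col7a1 was lost without replicate 1 or 3 of either group, and that of Lamb3 without any 1 wild-type siGLO library or Stag1-/- replicate 1 or 2. Against Stag2-/-, Lamb3 was 1.36 higher (SE 0.38, adjusted p = 0.0197), a call kept in all 6 analyses that left 1 library out, and Col7a1 was 0.70 higher (SE 0.20, adjusted p = 0.0246), a call lost without Stag2-/- replicate 2.

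Lama3, an alpha chain of epithelial laminins, fell by 1.07 in Stag1-/- (SE 0.34, adjusted p = 0.0436), from 320, 214 and 161 to 153, 99.1 and 78.5. Lama3 was highest in replicate 1 of every condition, the groups did not overlap, and the call was lost without wild-type siGLO replicate 1 or Stag1-/- replicate 2 or 3. In Stag2-/- it had 264, 138 and 131, each below the same-numbered wild-type library, and in Stag2-/- siStag1 cells 217, 185 and 139. Lama3 was not called there (adjusted p = 0.436 and 0.416), but it was with the replicate block (adjusted p = 0.0324 and 0.0532).

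A further group fell where Stag2 was deleted and was not called in Stag1-/- cells against wild type. Hspg2 encodes perlecan, the large heparan sulfate proteoglycan of basement membranes. It had 14636, 15804 and 16678 in wild-type siGLO, 15042, 14713 and 15105 in wild-type siStag1, 20410, 19263 and 15378 in Stag1-/-, 8833, 9318 and 11575 in Stag2-/-, and 7442, 8198 and 11701 in Stag2-/- siStag1 cells. Libraries with a Stag2 deletion were below all others. The log2 fold change was -0.66 (SE 0.15, adjusted p = 0.00491) in Stag2-/- and -0.79 (SE 0.15, adjusted p = 0.000644) in Stag2-/- siStag1 cells, and it was 0.89 higher (SE 0.15, adjusted p = 0.000636) in Stag1-/- than in Stag2-/-. Lamb2, the beta chain of synaptic and kidney laminins, had 981, 1040 and 1075 in wild-type siGLO, 869, 836 and 1022 in wild-type siStag1, 957, 950 and 784 in Stag1-/-, 521, 652 and 834 in Stag2-/-, and 437, 568 and 724 in Stag2-/- siStag1 cells. It changed by -0.63 (SE 0.17, adjusted p = 0.0173) in Stag2-/- and by -0.84 (SE 0.17, adjusted p = 0.00128) in Stag2-/- siStag1 cells. The clones overlapped for Lamb2, and their difference, 0.42 (SE 0.17, adjusted p = 0.0989), was lost without replicate 1 or 2 of either group.

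Nid1 was the only laminin, nidogen or perlecan gene called when Stag1 was depleted in Stag2-/- cells. NID1 links laminin to type IV collagen. Nid1 had 3825, 3914 and 4269 in wild-type siGLO, 2886, 3011 and 3209 in wild-type siStag1, 5145, 4703 and 4215 in Stag1-/-, 2618, 1924 and 2161 in Stag2-/-, and 1668, 1257 and 1384 in Stag2-/- siStag1 cells. In both genotypes every siStag1 library was below every siGLO library. The log2 fold change of Nid1 was -0.84 (SE 0.12, adjusted p = 0.000161) in Stag2-/- and -1.48 (SE 0.12, adjusted p = 2.21e-07) in Stag2-/- siStag1 against wild-type siGLO, and it was -0.64 (SE 0.12, adjusted p = 0.00598) in Stag2-/- siStag1 against Stag2-/- siGLO. In wild type siStag1 gave -0.40 on the log2 scale (SE 0.12, adjusted p = 0.336), which passed with the replicate block (adjusted p = 0.0775). The siStag1 effects in the genotypes differed by -0.24 (SE 0.17, adjusted p = 0.954), so no difference between them was shown. With siStag1, the log2 fold change of Stag1 itself was -2.28 in wild type and -1.53 in Stag2-/- cells. Stag1-/- was not called for Nid1 against wild type, at 0.23 (SE 0.12, adjusted p = 0.225). Nid1 was 1.07 higher (SE 0.12, adjusted p = 2.38e-05) in Stag1-/- than in Stag2-/-.

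Fn1, the gene of the cell-binding glycoprotein fibronectin, was among the most abundant members and was not called in any comparison. It had 13214, 14755 and 19650 in wild-type siGLO, 14905, 14987 and 17758 in wild-type siStag1, 16201, 16550 and 16333 in Stag1-/-, 20778, 15710 and 18545 in Stag2-/-, and 18115, 15762 and 18552 in Stag2-/- siStag1 cells. The groups overlapped, the wild-type siGLO libraries had the widest spread, and the smallest adjusted p over the 7 comparisons was 0.279. The 95% interval of Stag1-/- minus Stag2-/- was -0.42 to 0.09.

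Among collagens outside the basement membrane, those that rose with the Stag2 deletion did so from low levels. In Stag2-/- cells 4 of 18 tested members of the beaded, network, transmembrane and fibril-associated classes rose and 3 fell, and 2 of 10 fibrillar collagens rose and 1 fell. Of all tested genes, 13.9% rose and 14.4% fell, so the counts of fibrillar collagens and of falls lie near that background. Col2a1, the fibrillar collagen of cartilage and notochord, had 176, 215 and 229 in wild-type siGLO, 181, 161 and 200 in wild-type siStag1, 303, 249 and 334 in Stag1-/-, 178, 757 and 1102 in Stag2-/-, and 245, 668 and 803 in Stag2-/- siStag1 cells. Replicate 1 of Stag2-/- lay within wild type, and replicates 2 and 3 were far above. The rise was 1.72 (SE 0.47, adjusted p = 0.0168) in Stag2-/- and 1.47 (SE 0.47, adjusted p = 0.0217) in Stag2-/- siStag1 cells, and both calls were kept whichever library was left out, the first at 1.18 to 2.17. Stag1-/- was lower than Stag2-/- (log2 difference -1.20, SE 0.46, adjusted p = 0.0791), but that call was lost under DESeq2 and when only the libraries compared were fitted. Among the fits that left 1 library out, it was kept only without Stag2-/- replicate 1. Col26a1, which encodes a little-studied collagen with an EMI domain, had 19.6, 14.2 and 22.2 in wild-type siGLO, 27.9, 30.3 and 18.3 in wild-type siStag1, 18.7, 15.5 and 17.1 in Stag1-/-, 24.3, 40.9 and 62.2 in Stag2-/-, and 44.3, 67.5 and 98.9 in Stag2-/- siStag1 cells. It rose by 1.18 (SE 0.38, adjusted p = 0.0376) in Stag2-/- and by 1.90 (SE 0.37, adjusted p = 0.000867) in Stag2-/- siStag1 cells, and it was lower in Stag1-/- than in Stag2-/- (log2 difference -1.30, SE 0.38, adjusted p = 0.0266). The call in Stag2-/- was lost without wild-type siGLO replicate 2 or Stag2-/- replicate 3, and that between the clones without Stag2-/- replicate 3.

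The type IV chains of chromosome X went the other way from Col4a1 and Col4a2. Col4a5 and Col4a6 encode chains of the less widespread type IV trimers and lie next to each other with 1308 bases between them. Col4a5 had 12.1, 28.4 and 32.8 in wild-type siGLO, 11.6, 24.8 and 20.3 in wild-type siStag1, 49.1, 38.9 and 36.1 in Stag1-/-, 56, 36.6 and 60.1 in Stag2-/-, and 63.9, 47.7 and 71.7 in Stag2-/- siStag1 cells. Col4a6 had 0, 8.12 and 4.83 in wild-type siGLO, 9.3, 5.51 and 3.86 in wild-type siStag1, 14.7, 1.94 and 8.12 in Stag1-/-, 12.7, 22.6 and 37.9 in Stag2-/-, and 15.7, 32.2 and 32.3 in Stag2-/- siStag1 cells. Neither gene overlapped wild-type siGLO in the conditions with a Stag2 deletion, and in Stag1-/- Col4a5 did not overlap it either, though it was not called (log2 fold change 0.76, SE 0.35, adjusted p = 0.176). Col4a5 rose by 1.06 (SE 0.35, adjusted p = 0.0442) in Stag2-/- and 1.32 (SE 0.35) in Stag2-/- siStag1 cells. Col4a6 rose by 2.49 (SE 0.73, adjusted p = 0.0235) and 2.62 (SE 0.72), values that rest on few counts in wild type. The call of Col4a5 in Stag2-/- was lost without wild-type siGLO replicate 1 or Stag2-/- replicate 3. Both genes stayed at 71.7 normalized counts or less, against 1707 or more for Col4a1 in every knockout library. The median log2 fold change of the 487 tested genes of chromosome X was 0.12 in Stag2-/- and 0.12 in Stag2-/- siStag1 cells. For the 35 genes within 5 Mb it was 0.16 and 0.07. In Stag1-/- cells these medians were -0.05 and 0.08. The part of that regional shift in the rise of both genes was not tested.

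**Figure D3:**
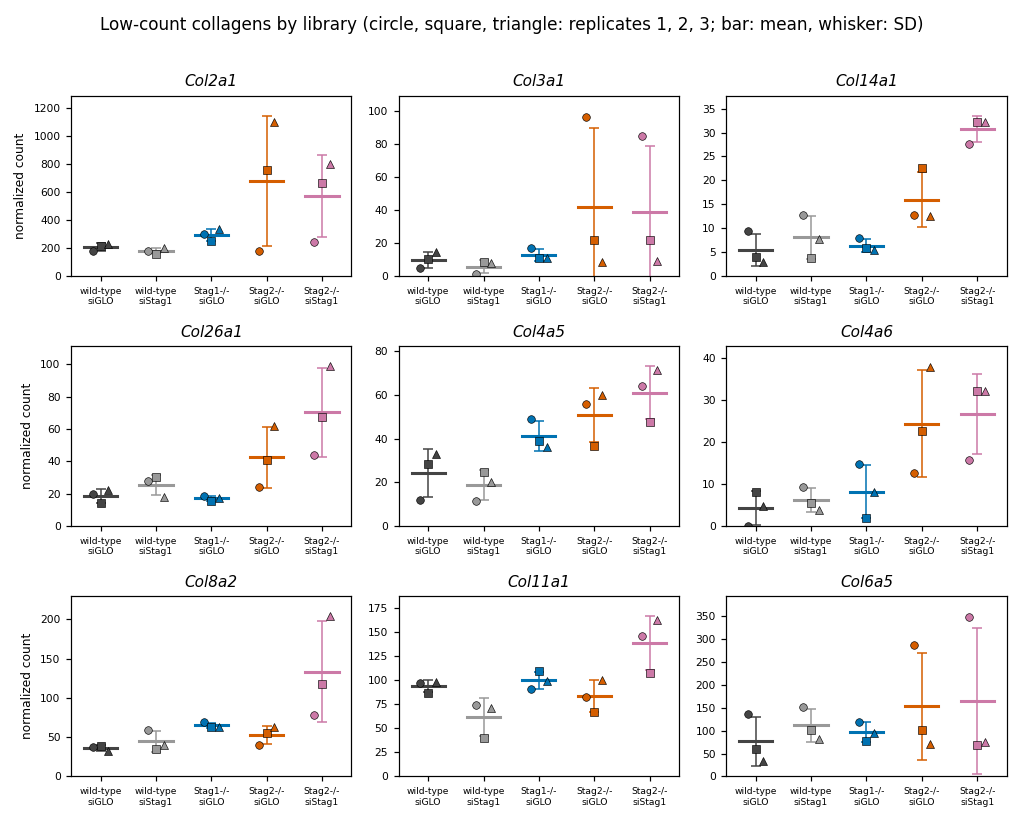
Normalized counts (y axis, linear from 0) of 9 low-count collagens in the 15 libraries, by condition (x axis); symbols are replicates, horizontal bars are means and whiskers are SDs (n = 3) cut off at 0. Replicate 1 (circle) is the lowest Stag2-/- library for Col2a1 and the highest for Col3a1 and Col6a5, while Col4a5 and Col4a6 lie above wild-type siGLO in every library with a Stag2 deletion.

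The median spread between replicates was wider for members than for all genes, without matching for count level. The median coefficient of variation within a condition was 19.8% for members against 10.9% for all tested genes in wild-type siGLO, 19.9% against 12.4% in Stag1-/-, 15.3% against 9.26% in wild-type siStag1, 30.5% against 13.3% in Stag2-/- and 24.9% against 13.0% in Stag2-/- siStag1 cells. Most tested members had low counts. Among the 12 members over 100 per kilobase, only Fn1 (21.2%) and Nid2 (13.3%) exceeded the all-gene value in wild-type siGLO. In Stag2-/- cells Col4a1 (35.3%), Col4a2 (42.1%) and others of them exceeded it. Replicate 1 was the highest library in all 5 conditions for Col18a1, Col6a5, Lama3 and Lamc1, or 8.51% of tested members against 6.57% of all genes. Col3a1 and Col6a5, named here after their values were seen, show how far 1 library can go. Col3a1, a fibrillar collagen of elastic tissues, had 96.1, 21.5 and 8.43 in Stag2-/- and 84.6, 21.8 and 9.08 in Stag2-/- siStag1 cells, against 4.67, 10.1 and 14.5 in wild-type siGLO. Its rise in Stag2-/-, 2.10 (SE 0.85, adjusted p = 0.0918), was not called without Stag2-/- replicate 1 or any 1 wild-type siGLO library. Col6a5, a chain of beaded-filament collagen, had 286, 102 and 70.6 in Stag2-/- against 137, 58.8 and 34.8 in wild-type siGLO, and was not called, but passed with the replicate block (adjusted p = 0.0275) and without the 5 libraries numbered 1 (adjusted p = 0.0383).

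Further collagens outside the basement membrane were counted at low levels too. Col20a1, a fibril-associated collagen, had 20.5, 28.4 and 50.2 in wild-type siGLO, 29.1, 16.5 and 23.2 in wild-type siStag1, 29.5, 18.5 and 37.9 in Stag1-/-, 4.22, 14 and 14.8 in Stag2-/-, and 6.89, 7.27 and 8.07 in Stag2-/- siStag1 cells. The log2 fold change was -1.58 (SE 0.45, adjusted p = 0.0219) in Stag2-/- and -2.14 (SE 0.48, adjusted p = 0.00234) in Stag2-/- siStag1 cells. Without wild-type siGLO replicate 3, the library with the highest count, the call in Stag2-/- was lost. Col14a1, another fibril-associated collagen, rose by 1.52 (SE 0.49, adjusted p = 0.0385) in Stag2-/- and by 2.46 (SE 0.47, adjusted p = 0.000686) in Stag2-/- siStag1 cells, where it had 27.5, 32.2 and 32.3 against 9.33, 4.06 and 2.90 in wild-type siGLO. Col22a1 rose by 0.90 (SE 0.32, adjusted p = 0.0615) and 1.42 (SE 0.32, adjusted p = 0.00245) in these conditions, and Col6a2, a chain of type VI microfibrils, by 1.28 (SE 0.47, adjusted p = 0.0658) and 1.50 (SE 0.47, adjusted p = 0.0193). In Stag2-/- these calls of Col14a1, Col22a1 and Col6a2 were each lost without wild-type siGLO replicate 2 (Col14a1, Col6a2) or 3 (Col14a1, Col22a1) and without Stag2-/- replicate 2, those of Col22a1 and Col6a2 also without Stag2-/- replicate 3, and that of Col22a1 also without wild-type siGLO replicate 1. The fibrillar Col5a3 fell by 1.01 (SE 0.27, adjusted p = 0.0165) and the hemidesmosomal Col17a1 fell by 0.91 (SE 0.29, adjusted p = 0.0354) in Stag2-/-, the second call being lost without wild-type siGLO replicate 3 or Stag2-/- replicate 2. Col9a2, a cartilage collagen chain, had 161, 121 and 217 in wild-type siGLO, 102, 98.2 and 140 in wild-type siStag1, 220, 239 and 297 in Stag1-/-, 133, 211 and 242 in Stag2-/-, and 127, 253 and 314 in Stag2-/- siStag1 cells. It was not called, although Stag1-/- did not overlap wild type (log2 fold change 0.60, SE 0.29, adjusted p = 0.203, and 0.0349 with the replicate block).

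The clones were compared directly to learn where loss of STAG1 and of STAG2 differed. Of the 47 tested members, 17 differed, 14 of them higher in Stag1-/- and 3 higher in Stag2-/-, against 25.7% of all tested genes (12.7% higher and 12.9% lower in Stag1-/-). All 3 linker genes were higher in Stag1-/-, as were 5 of 8 tested laminin chains (Lama5, Lamb1, Lamb2 and Lamb3 among them), the basement membrane collagens Col18a1 and Col7a1, and Col5a3, Col11a2, Col13a1 and Col20a1. The 3 higher in Stag2-/- were Col2a1, Col26a1 and Col14a1. Col11a2 (log2 difference 0.91, SE 0.35, adjusted p = 0.0788) was called only when Stag2-/- replicate 3 or none was left out. The call of Col14a1 was lost without Stag1-/- replicate 2 or 3 or Stag2-/- replicate 2, and that of Col20a1 without Stag1-/- replicate 3 or Stag2-/- replicate 1. The groups did not overlap at 16 members (31.0% of all genes). Without Stag2-/- replicate 2 the count was 11 (18.9% of all genes called), and without Stag2-/- replicate 1 it was 22 (22.6%). With the replicate block it was 21 (37.3%), the 4 more being Col22a1, Col4a6, Lama3 and Lamc1.

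Stag1 depletion for 48 h in wild-type cells was followed by no called member. Normalized Stag1 counts were 516, 455 and 352 with siStag1. None of the 47 tested members passed edgeR's test, where 0.248% of all genes did (0.103% higher and 0.145% lower). DESeq2 called 0 as well, but Nid1 was called with the replicate block (adjusted p = 0.0775) and when only the libraries compared were fitted. An unadjusted p under 0.05 was found for 3 members, Col11a1, Col1a1 and Nid1. The members' median absolute log2 fold change was 0.23 against 0.11 for all genes, and 6 members did not overlap between groups (15.5% of all genes). By role, without matching for count level, that median was 0.47 for beaded, network, transmembrane and fibril-associated collagens and 0.37 for fibrillar ones. It was 0.18 for basement membrane collagens, 0.15 for laminin chains, 0.07 for nidogens and perlecan, and 0.03 for Fn1 and Sparc. For 3 of the 6 members lower in all 3 knockout conditions, the log2 fold change with siStag1 was -0.09 for Col4a1 (95% interval -0.47 to 0.28), -0.06 for Col4a2 (-0.50 to 0.39) and -0.05 for Lamb1 (-0.27 to 0.17). These intervals do not reach the values of the Stag1-/- clone, and neither do those of Lamc1 (-0.37 to 0.06) and Sparc (-0.35 to 0.24). That of Col13a1 (-1.13 to 0.04) does.

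With siStag1 in Stag2-/- cells, the share of members called was near that of all tested genes. Normalized Stag1 counts were 666, 780 and 628 in Stag2-/- siStag1 cells against 1871, 2199 and 1932 in Stag2-/- siGLO. Col8a2, Col11a1 and Nid1 changed, 3 of 47 members (6.38%) against 6.37% of all genes (2.98% higher and 3.39% lower), and the groups did not overlap at 6 members (19.3% of all genes). Col8a2, a network collagen of corneal endothelium, had 37.3, 38.6 and 31.9 in wild-type siGLO, 59.3, 34.9 and 39.6 in wild-type siStag1, 68.8, 63.1 and 63.1 in Stag1-/-, 40.1, 54.8 and 63.2 in Stag2-/-, and 78.7, 117 and 204 in Stag2-/- siStag1 cells. It was highest in Stag2-/- siStag1 cells, with a rise of 1.34 (SE 0.30, adjusted p = 0.0209) over Stag2-/- siGLO that was lost without Stag2-/- siStag1 replicate 3. In Stag1-/- against wild type the rise of 0.85 (SE 0.32, adjusted p = 0.0866) was lost whichever library was left out. The fibrillar Col11a1 had 146, 107 and 162 in Stag2-/- siStag1 against 82.4, 66.7 and 100 in Stag2-/- siGLO cells, a rise of 0.74 (SE 0.23, adjusted p = 0.0978) that was lost without replicate 1 or 2 of Stag2-/- siGLO or replicate 1 or 3 of Stag2-/- siStag1. In wild type it had 74.4, 39.5 and 71.4 with siStag1 against 97, 86.2 and 97.6 with siGLO. The count over all members was 5 without Stag2-/- siStag1 replicate 1 (10.1% of all genes called), 1 without replicate 3 (2.83%), and 7 with the replicate block (14.1%), which added Col13a1, Col27a1 and Lamc1 among others. Stag1 itself had a log2 fold change with siStag1 of -2.28 (SE 0.14) in wild type and -1.53 (SE 0.14) in Stag2-/- cells. That difference, 0.75 (SE 0.19), was not called by edgeR (adjusted p = 0.254), but the depletion compared was not equal in size. Whether siStag1 acted differently on the members in Stag2-/- and in wild type was also tested. Under edgeR this was called for 0 members, against 0.159% of all genes (0.0207% higher and 0.138% lower), with 3 members at an unadjusted p under 0.05. Col11a1 had the smallest adjusted p (0.247, log2 difference 1.34, SE 0.34), and it was called by DESeq2 (adjusted p = 0.0308) and with the replicate block.

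Genes that fold, cross-link, bind or cut these proteins were followed as lists outside the set. Their counts are to be read against all tested genes, of which 20% changed in Stag1-/-, 28.3% in Stag2-/-, 43.9% in Stag2-/- siStag1 cells and 25.7% between the clones. Of 26 tested genes for collagen folding, processing and cross-linking, 4 rose and 6 fell in Stag1-/-, 3 rose and 12 fell in Stag2-/-, and 3 rose and 14 fell in Stag2-/- siStag1 cells. The prolyl hydroxylase subunit P4ha2 fell by 1.40 (SE 0.16, adjusted p = 2.21e-05) in Stag1-/- and its log2 fold change was -1.39 (SE 0.16) in Stag2-/-. Those of the lysyl hydroxylase Plod2 were -0.90 (SE 0.13) and -1.04 (SE 0.13), both called. P4ha1, a related subunit, fell by 1.16 (SE 0.17) in Stag2-/-. In contrast Bmp1, the procollagen C-proteinase, rose by 1.34 (SE 0.22, adjusted p = 0.000684) in Stag1-/-. Of 20 tested matrix receptors, 6 rose and 1 fell in Stag1-/-, 3 rose and 7 fell in Stag2-/-, and 12 were higher and 1 lower in Stag1-/- than in Stag2-/-. Itga3, whose product forms a laminin receptor, rose by 1.27 (SE 0.19, adjusted p = 0.000248) in Stag1-/- and was 1.81 higher (SE 0.19, adjusted p = 1.38e-05) than in Stag2-/-. The dystroglycan gene Dag1, another laminin receptor, rose by 0.77 (SE 0.08) in Stag1-/- and was 0.71 higher (SE 0.08) than in Stag2-/-. Among 14 tested other basement membrane proteins, 4 rose and 2 fell in Stag1-/- and 5 rose and 3 fell in Stag2-/-, where Fras1 rose by 2.72 (SE 0.45) and Tinagl1 fell by 2.03 (SE 0.35). Of 12 tested matrix proteases and their inhibitors, 2 rose and 2 fell in Stag1-/- and 4 rose and 4 fell in Stag2-/-. The membrane protease Mmp14 rose by 0.79 (SE 0.11) and 0.56 (SE 0.11), and the inhibitor Timp3 had log2 fold changes of -0.44 (SE 0.12) and -0.80 (SE 0.12), both called. In wild-type siStag1 cells no gene of these 4 lists was called.

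Markers of primitive endoderm, a maker of basement membrane, fell in the knockouts, as did some members, while other members rose. In RNA from a whole culture, fewer cells of a type and less RNA per cell cannot be told apart. All 9 primitive endoderm markers (Gata4, Gata6, Sox7, Sox17, Foxa2, Pdgfra, Dab2, Cubn and Amn) fell in Stag1-/-, Stag2-/- and Stag2-/- siStag1 cells, and none was called in wild-type siStag1. Their summed normalized count was 9019 to 9893 in wild-type siGLO, 8106 to 8615 in wild-type siStag1, 544 to 972 in Stag1-/-, 1328 to 2346 in Stag2-/- and 1584 to 2259 in Stag2-/- siStag1 cells, with no marker at 3 counts or fewer throughout a group. Against Stag2-/-, 6 of the 9 were lower in Stag1-/- and none higher. With all libraries and no block, Col4a1, Col4a2, Lamc1 and Sparc were not called between the clones, and Lamb1 was higher in Stag1-/-. Col4a2 was called higher in Stag1-/- only when Stag2-/- replicate 1 or all libraries numbered 1 were left out. Lamc1 was called higher there with the replicate block and in several other fits. Of 4 parietal endoderm markers, 2 fell in Stag1-/- and 3 in Stag2-/-, with sums of 562 to 671 in wild-type siGLO, 498 to 539 in wild-type siStag1, 146 to 194 in Stag1-/-, 214 to 305 in Stag2-/- and 286 to 393 in Stag2-/- siStag1 cells. The part of these cells in the fall of Col4a1, Col4a2, Lamb1, Lamc1 and Sparc was not tested.

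Embryonic stem cell markers moved less in the single knockouts, with 1 of 8 lower in Stag1-/- and 4 in Stag2-/-, but 7 of 8 fell in Stag2-/- siStag1 cells. Their sums were 101799 to 106799 in wild-type siGLO, 94605 to 101694 in wild-type siStag1, 83744 to 96838 in Stag1-/-, 79262 to 92770 in Stag2-/- and 59009 to 72747 in Stag2-/- siStag1 cells. Fibroblast markers had sums of 155 to 312 over all conditions for 9 genes, nearly all of it from Thy1, Pdgfrb and Tbx15, which were counted in every library. Lum and Fap had at most 3 counts in every library, and Dcn in every library outside Stag2-/- siStag1. Sums of 5 endothelial markers were 153 to 348, with Emcn at most 3 counts in every library, and those of 6 mesoderm markers 155 to 508. Of 5 tested mesoderm markers, 1 rose and 1 fell in Stag2-/-, with a median log2 fold change of -0.70, and 1 rose in Stag1-/-. T rose by 3.80 (SE 0.62, adjusted p = 0.000521) and Eomes fell by 0.87 (SE 0.24, adjusted p = 0.018) in Stag2-/-, whereas Hand1 rose by 2.17 (SE 0.51, adjusted p = 0.00904) in Stag1-/-.

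**Figure D4:**
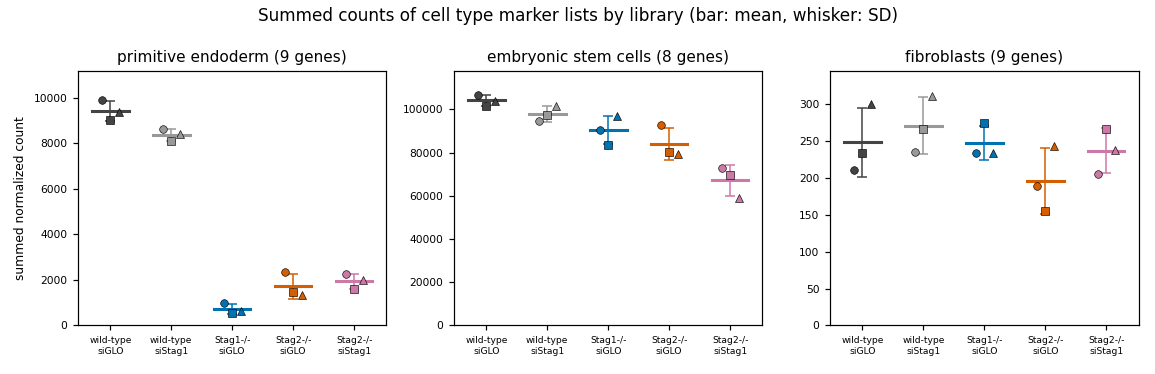
Summed normalized counts (y axis, linear from 0) of markers of primitive endoderm, embryonic stem cells and fibroblasts in the 15 libraries, by condition (x axis); symbols are replicates, horizontal bars are means and whiskers are SDs (n = 3). Primitive endoderm sums are 8106 or more in wild-type libraries and 2346 or less in every knockout library, embryonic stem cell sums are lowest in Stag2-/- siStag1, and fibroblast sums stay at 312 or less.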

How the data were processed

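The authors enriched polyadenylated RNA, sequenced paired-end 150 bp reads and aligned them to mm10 with STAR. They deposited raw counts per gene for each library. The counting tool, annotation and strand setting are not given in the sources used here, so reads in overlapping or antisense genes cannot be assigned to a strand. Summary lines that name no gene (19.8% to 23.4% of all counted entries) were left out. At this depth 3 counts equal 0.157 to 0.200 CPM, which covers counting error only.

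edgeR 4.0.16 (R 4.3.3) was run on the counts. Genes passed filterByExpr with a minimum count of 10 and a minimum total of 15. TMM factors were applied, followed by two-sided quasi-likelihood tests with 1 coefficient per condition over 15 libraries. P-values were adjusted by Benjamini-Hochberg across the 14508 tested genes and called under 0.1, a threshold the study also uses. The SE is the log2 fold change divided by the square root of F, and intervals are normal. Genes were placed with GENCODE M21, which held all 59 members. Members and lists were chosen with earlier results of these data known. Values in every library are given for the 15 members highest per kilobase, members called in at least 3 of 7 comparisons with a mean count of at least 20, and tested head-to-head pairs. Up to 4 more members per role, and up to 4 genes per list and comparison, are named by their smallest adjusted p. Exceptions are marked. A member and a marker are not reported here by name, and the counts of members include that member.

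Same-numbered libraries deviated together from their condition means (mean r 0.299 over 30 pairs and 12967 genes). The mean over 60 differently numbered pairs was -0.146. Deviations cancel within a condition, so that value follows from the first and is no separate baseline. Every same-numbered pair exceeded 0.1 in 5 comparisons, but not for Stag2-/- siStag1 against wild-type siGLO or the difference between siStag1 effects. In simulated data 144 of 197 genes changed 2-fold in Stag1-/- were recovered, with 15 of 14124 unchanged genes called; for the difference between siStag1 effects, 119 of 196 were recovered and 22 of 14135 unchanged genes called. No libraries of the same condition were copies of each other (15 pairs, chi-square per degree of freedom 4.52 to 25.2), and pairs across conditions were not checked this way. Alternatives were DESeq2 1.42.0, its size factors, library size alone, other filters, fewer libraries, an adjusted p under 0.05 and a replicate block. Figures used matplotlib 3.10.9.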

Additional observations from a re-analysis of the deposited data

How the results depend on the processing

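Counts of members called moved by more than 1.5 times under few alternatives. At an adjusted p under 0.05, 11 members were called in Stag1-/- against wild type. With the replicate number as a block, 1 member (Nid1) was called in wild-type siStag1, 7 in Stag2-/- siStag1 against Stag2-/- siGLO, and 1 (Col11a1) for the difference between siStag1 effects, which DESeq2 also called at 1. Fitting only the libraries compared gave 1 in wild-type siStag1 and 0 in Stag2-/- siStag1 against Stag2-/- siGLO. Leaving out the 5 libraries numbered 1, an alternative chosen after seeing the data, gave 5 in that comparison. When libraries were dropped singly, counts were 10 to 14 in Stag1-/-, 17 to 20 in Stag2-/-, 0 to 0 in wild-type siStag1, 20 to 27 in Stag2-/- siStag1 against wild type, 11 to 22 between the clones, 1 to 5 in Stag2-/- siStag1 against Stag2-/- siGLO, and 0 to 0 for the difference.

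Over all 7 comparisons 82 member results were called. Of these, 50 kept the call under every alternative other than the stricter threshold, and 32 lost it under at least 1. The block called 21 members in Stag1-/- (30.6% of all genes), 26 in Stag2-/- (39.4%), 30 in Stag2-/- siStag1 against wild type (53.7%) and 21 between the clones (37.3%), and removed none of the calls made without it. Among results called by at least 1 of edgeR, DESeq2 and the block, 1 turned its direction, Col6a5 in Stag2-/- siStag1 against wild type without Stag2-/- siStag1 replicate 1. Its log2 fold change was -0.099 there, and dropping other libraries moved it up to 1.81. Fn1 passed in 2 of 111 fits. Low-count members are limited by depth.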
